A study of Ovis aries with 5 samples.

Results

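The regions described here are the long domains of H3K27me3 on the sheep autosomes, taken as the regions of 8 kb or more in the joint H3K27me3 list that the authors deposited. Of 15430 autosomal regions in that list, 691 met the minimum, and the whole list with chromosome X held 31942. The domains were chosen by the length of the H3K27me3 region, which the tags of the mark set, so their H3K27me3 values are given as a description, and the marks H3K4me3 and H3K27ac took no part in the choice. Chromosome X held 2659 regions of 8 kb or more and was not analysed further.

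H3K27me3 is the trimethylated form of lysine 27 of histone H3. It is written by Polycomb repressive complex 2 and marks silenced chromatin, often in broad blanket-like domains over genes of transcription factors and signalling molecules that other cell types use. H3K4me3 marks promoters, most strongly those of transcribed genes, and H3K27ac marks active promoters and enhancers. Acetyl and trimethyl groups cannot sit on the same lysine 27, whereas H3K4me3 can lie in the same stretch of chromatin as H3K27me3, a state called bivalent when both marks are on the same nucleosomes.

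The tissue was perirenal adipose tissue, the fat around the kidney, from untreated wild type fetuses of pure bred merino sheep, labelled as 132 days old. 2 fetuses, called replicate 1 and replicate 2, each gave 1 H3K4me3 and 1 H3K27ac library, and 1 input library of nucleosomal DNA combined from the fetuses was the control of every peak list. The H3K27me3 values came as 2 per-library peak lists, F1 and F2, for which the labels used here hold no sample, so each value is the authors' own value for that list, without a replicate number. There was 1 tissue, 1 age and no treatment to compare, and the labelled tissue could not be checked against marker genes, because no annotation of the build was used here.

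Depth differed between marks. After duplicates were removed, the H3K27me3 lists rested on 27705339 (F1) and 27626381 (F2) tags, about as many as the 26651829 of the input, and came from a Genome Analyser II, whereas the other marks came from a HiSeq2000. The H3K4me3 libraries held 92882463 and 109652707 tags and the H3K27ac libraries 144038222 and 145716523, in replicates 1 and 2. A tag is 1 mapped sequence read, and the part of depth and instrument in the results was not tested. All positions are on Oar_v3.1, 1-based.

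The long domains were few but took a large share of the mark. They made up 4.48% of the autosomal H3K27me3 regions and 17.8% of the autosomal bases under H3K27me3, and covered 8.57 Mb, or 0.35% of the autosomes. Lengths ran from 8011 to 50071 bp, with a median of 10471 bp and quartiles of 9000 and 13938 bp. For comparison, 2587 autosomal regions were 4 to 8 kb long and 12152 were shorter. The minimum cut a continuous range of lengths, since the longest region under it measured 7992 bp. The 5 regions just over it held 161 to 493 tags in list F1 and 351 to 469 in list F2, and 1 of them held H3K4me3. The 5 just under it held 383 to 661 and 499 to 758 tags, and 4 of them held H3K4me3.

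Joint H3K4me3 regions, those made of peaks found in both animals, lay in many of the long domains, and joint H3K27ac regions in few. A domain is said to hold a mark where it overlapped a joint region of it by at least 1 bp. By this rule, 310 of 691 long domains held H3K4me3 (44.9%, 95% Wilson interval 41.2 to 48.6%). The share was 21.5% (19.9 to 23.1%) in the regions of 4 to 8 kb and 11.4% (10.9 to 12%) in the shorter regions, so the intervals did not overlap. H3K27ac lay in 34 long domains (4.92%, 3.54 to 6.80%), against 4.45% (3.72 to 5.31%) and 4.62% (4.27 to 5.01%), and these intervals did overlap. Intervals here cover counting error and not the difference between animals. They also treat each region as independent, although many long domains lie close to each other.

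A longer region has more bases in which an overlap can fall, so the marks were also counted per base. H3K4me3 covered 21.8% of the bases of the long domains, 11.2% of those of the regions of 4 to 8 kb and 8.33% of those of the shorter regions, against 2.06% of the autosomes. For H3K27ac the order was the opposite. It covered 1.4% of the bases of the long domains, 2.33% and 3.51% of those of the other classes, and 7.47% of the autosomes. By base, the long domains were thus the class with most H3K4me3 and least H3K27ac.

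Within the long domains the share with H3K4me3 was higher in the longer classes. It was 32.6% (27.5 to 38.0%) of 301 domains of 8 to 10 kb, 43.4% of 143 of 10 to 12 kb, 57.5% of 134 of 12 to 16 kb, 57.4% of 54 of 16 to 20 kb and 71.2% (58.6 to 81.2%) of 59 domains of 20 kb or more. The classes from 12 to 20 kb did not differ beyond their intervals. The share of bases under H3K4me3 went from 16.6% in the domains of 8 to 10 kb to 27.6% in those of 20 kb or more. H3K27ac lay in 5 of 54 domains of 16 to 20 kb (9.26%, 4.02 to 19.9%) and in 0 of 59 domains of 20 kb or more, which allows a share of up to 5.08% (3 counts of 59), or 6.11% as the upper Wilson limit.

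**Figure D1:**
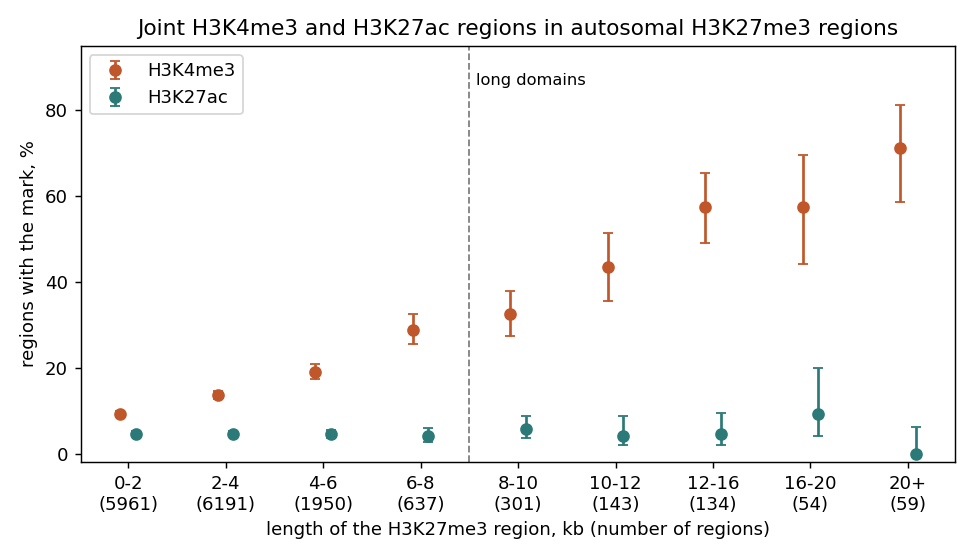
Share of autosomal H3K27me3 regions with a joint H3K4me3 region (orange) or a joint H3K27ac region (green), in %, by the length of the H3K27me3 region in kb, with 95% Wilson intervals as bars and the number of regions under each class; the dashed line is the minimum of 8 kb. The H3K4me3 share went from 9.13% below 2 kb to 71.2% at 20 kb or more, while the H3K27ac share stayed below 10%.

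The marks fell into 4 combinations. Of the long domains, 280 (40.5%, 36.9 to 44.2%) held H3K4me3 without H3K27ac, 30 (4.34%) held both, 4 (0.579%) held H3K27ac alone and 377 (54.6%, 50.8 to 58.2%) held neither. In the regions of 4 to 8 kb, 18.4% held H3K4me3 alone, 3.02% both and 77.1% neither. H3K4me3 covered more than 50% of the bases in 116 of the long domains (16.8%). Most domains with H3K4me3 held a single region of it, 267 in all, while 37 held 2, 5 held 3 and 1 held 4.

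The H3K4me3 regions in the long domains were long and mostly free of H3K27ac. 353 of 15350 autosomal joint H3K4me3 regions overlapped a long domain, and 324 of them (91.8%, 88.5 to 94.2%) overlapped no H3K27ac region. Of the 1621 H3K4me3 regions in other H3K27me3 regions 77.8% (75.7 to 79.7%) were without H3K27ac, and of the 13376 outside H3K27me3 37.8% (37.0 to 38.7%). Their median length was 4780 bp in the long domains, against 2810 bp and 2630 bp in the other places. A longer H3K4me3 region has more bases in which an overlap with a domain can fall. The part of the overlap rule in these lengths was not tested. Conversely, 36 H3K27ac regions overlapped a long domain, and 26 of these also overlapped H3K4me3 (72.2%), against 62.7% in other H3K27me3 regions and 23.9% outside. The share without H3K4me3 was 27.8% (15.8 to 44.0%) in the long domains and 37.3% (33.5 to 41.3%) in other H3K27me3 regions, and these intervals overlapped.

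Among H3K4me3 peaks within the FDR limit of 1%, those in the long domains had the lowest median fold enrichment over the input, the ratio that MACS gives for each peak, in both animals. The median fold was 39.9 over 786 peaks in replicate 1 and 49.7 over 402 peaks in replicate 2. In other H3K27me3 regions it was 42.8 and 56.6, and outside H3K27me3 51.7 and 71.2. The quartiles overlapped between places, as in the long domains they were 30.9 and 50.1 in replicate 1 and 38.8 and 63.4 in replicate 2. With peaks at every FDR this order did not hold in replicate 1, where the medians were 30.9 in the long domains, 32.3 in other H3K27me3 regions and 29.9 outside, and in replicate 2 they were 32.4, 37.2 and 34.8. Within the limit, H3K4me3 peaks were longer in the long domains, with medians of 3094 and 3276 bp, against 1991 and 2396 bp outside H3K27me3. Longer peaks also meet the overlap rule more easily, and its part was not tested.

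The few H3K27ac peaks showed no such order. Their median fold was 24.5 (67 peaks) and 26.2 (38 peaks) in the long domains, 23.8 in each replicate in other H3K27me3 regions, and 24.4 and 24.3 outside. All H3K27ac peaks in the long domains were within the FDR limit of 10% for that mark, as were nearly all in the other places. In replicates 1 and 2 the share was 98.1% and 96.9% in other H3K27me3 regions, and 96.9% and 96.2% outside.

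**Figure D2:**
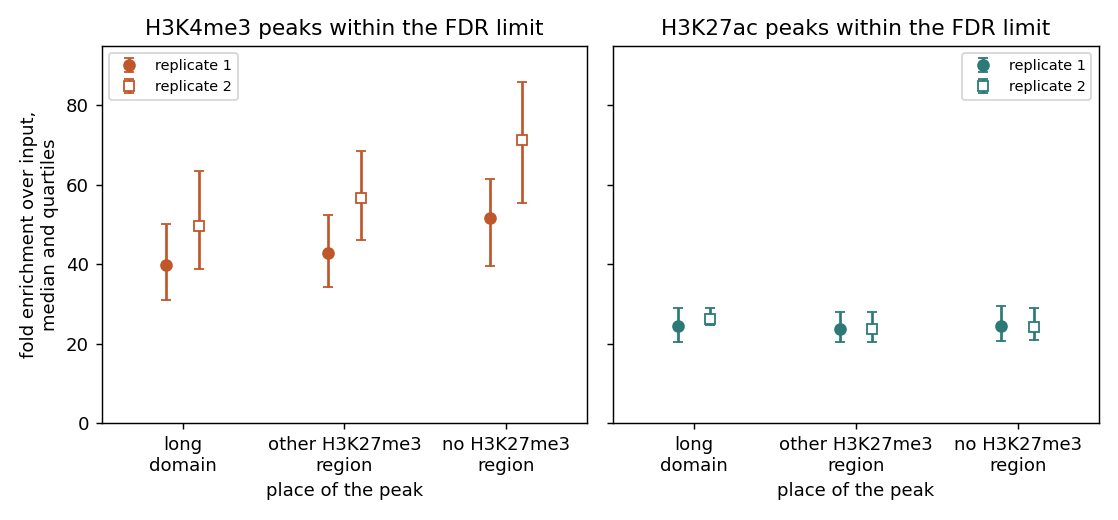
Fold enrichment over the input of H3K4me3 peaks (left) and H3K27ac peaks (right) within the FDR limit of each mark, by the place of the peak, as medians (symbols) with quartiles (bars), filled circles for replicate 1 and open squares for replicate 2. H3K4me3 medians were lowest in the long domains in both replicates (39.9 and 49.7), whereas the H3K27ac medians lay between 23.8 and 26.2 in every place.

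The share with H3K4me3 depended on the library. Within the FDR limit, 498 long domains (72.1%, 68.6 to 75.3%) held an H3K4me3 peak of replicate 1 and 312 (45.2%, 41.5 to 48.9%) a peak of replicate 2, against 310 in the joint list. At every FDR the peak lists put H3K4me3 in 605 domains in replicate 1 and in 530 in replicate 2, of which 520 held peaks of both, 85 of replicate 1 alone and 10 of replicate 2 alone. 76 domains (11%, 8.88 to 13.6%) held no H3K4me3 peak in either animal. For H3K27ac the libraries gave 58 and 36 domains (8.39% and 5.21%), with 32 in both. At every FDR these shares were 7.38% and 4.52% in the regions of 4 to 8 kb, and 7.84% and 4.98% in the shorter ones. In the regions of 4 to 8 kb, replicate 1 also gave the higher H3K4me3 share within the limit, 43.4% against 21.6%.

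The midpoints of the H3K4me3 regions were spread along the long domains. Of 360 overlaps of an H3K4me3 region with a long domain, 226 (62.8%) had the H3K4me3 region wholly inside, 128 had it cross 1 end and 6 had it reach past both ends. With each domain cut into 5 equal parts, the midpoints of the H3K4me3 regions numbered 49, 78, 71, 67 and 66 along the chromosome, and 29 lay outside. 37 domains (5.35% of 691, 3.91 to 7.29%) had H3K4me3 within 2 kb of an end and none inside. Out of the 381 domains with none inside this was 9.71% (7.13 to 13.1%), against 8.07% (6.96 to 9.34%) of such regions of 4 to 8 kb and 6.28% (5.84 to 6.76%) of the shorter ones. For H3K27ac the number was 12 (1.74% of 691), and out of the 657 domains with none inside 1.83% (1.05 to 3.17%), against 3.11% (2.5 to 3.88%) and 3.73% (3.40 to 4.09%).

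The base coverage around the ends was lower for H3K4me3 near the ends than further inside. H3K4me3 covered 21.4% of the bases in the bin 3 to 4 kb inside the ends, 15.9% of the last 1 kb inside, 10.6% of the first 1 kb outside, 12.8% of the next 1 kb and 5.11% at 19 to 20 kb outside. Other domains lie close by, and for the 301 domains with no other long domain within 100 kb these values were 19.2, 11.8, 8.42, 8.44 and 3.04%. H3K27ac covered 1.42% at 3 to 4 kb inside, 2.32% of the last 1 kb inside, 2.38% of the first 1 kb outside and 2.78% at 19 to 20 kb outside, all below its 7.47% of the autosomes. The nearest H3K27ac region lay at a median distance of 62.1 kb (quartiles 26.9 and 123 kb), and it lay within 10 kb of 82 domains (11.9%, 9.66 to 14.5%). These distances were 59.0 and 53.0 kb for the other classes, and 14.6% (13.3 to 16.0%) and 18.0% (17.3 to 18.7%) of them had H3K27ac within 10 kb.

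**Figure D3:**
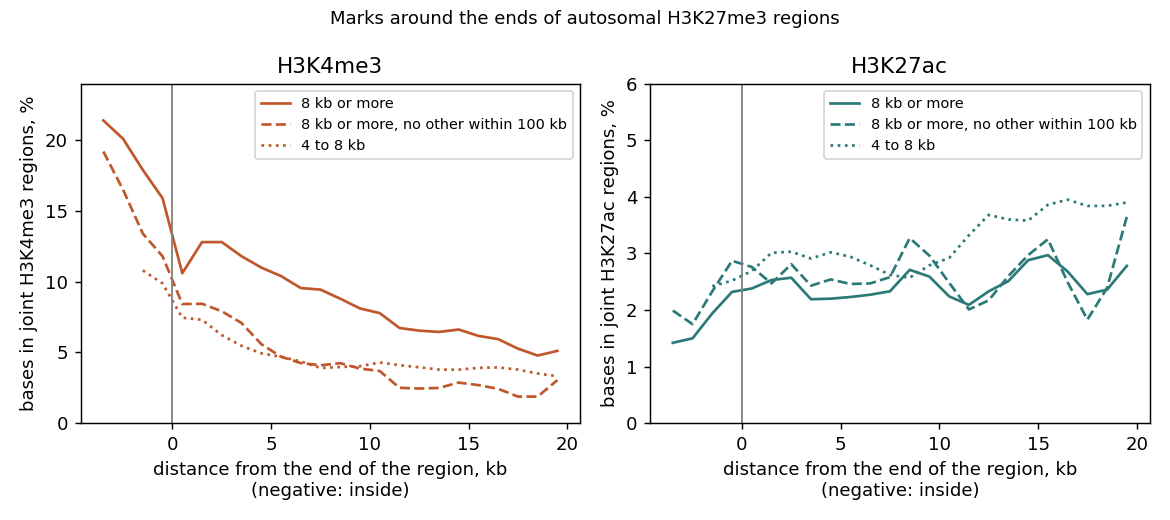
Percent of bases in joint H3K4me3 regions (left) and joint H3K27ac regions (right) in bins of 1 kb, by the distance in kb from the end of the H3K27me3 region, both ends together; solid lines are the 691 long domains, dashed lines the 301 without another long domain within 100 kb and dotted lines the regions of 4 to 8 kb. H3K4me3 in the long domains went from 21.4% inside to 10.6% in the first bin outside, and H3K27ac lay between 1.42 and 2.97% throughout.

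The tags of the H3K27me3 lists were used to see how evenly the domains were covered. The median domain held 729 tags in list F1 and 741 in list F2, or 67.5 and 69.6 tags per kb, with quartiles of 55.7 and 82.0 in F1 and 56.7 and 85.5 in F2. The regions of 4 to 8 kb had medians of 50.7 and 50.9 tags per kb and the shorter regions 38.0 and 37.2. The highest fold of a peak in the domain had a median of 13.8 and 13.9, against 9.62 in each list for regions of 4 to 8 kb. These values come from the lists that set the lengths, so they describe the choice and no test was made.

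Both lists gave nearly the same tags to most domains. The tags of F2 divided by those of F1 had a median of 1.03. In 599 domains (86.7%) F2 held at least 80% and at most 1.2 times the tags of F1. In 28 (4.05%) the counts were over 1.5 times apart. The ratio ran from 0.0748 to 8.85 at its ends, in domains that peaks of 1 list covered only in part. Peaks of F1 covered at least 80% of 665 domains and those of F2 of 668, and each list covered less than 50% of 3 domains. Over the 691 domains, Pearson's r of log2 tags per kb was 0.762 and Spearman's rho of tags per kb was 0.915. The domains share their libraries and 1 input, so the correlation is a description.

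A domain of the joint list was not always a long peak in each list, because the joint regions are unions of peaks that overlap between lists. Of the 691 domains, 365 (52.8%) held a peak of 8 kb or more in both lists, 92 in F1 alone, 126 in F2 alone and 108 (15.6%) in neither. A single peak in each list made up 245 domains (35.5%), and 185 (26.8%) were made of 3 or more peaks in at least 1 list.

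**Figure D4:**
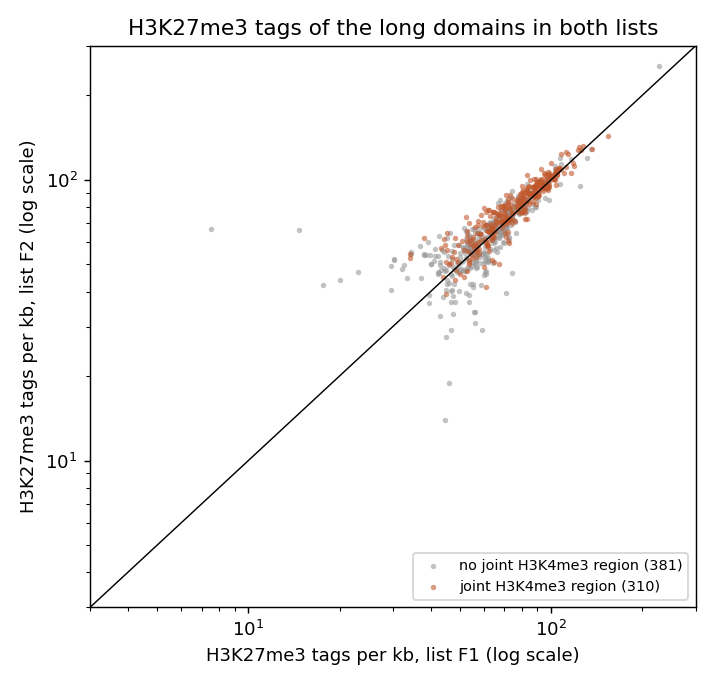
H3K27me3 tags per kb of each of the 691 long domains in list F1 (horizontal) and list F2 (vertical), both on log scales, with domains that hold a joint H3K4me3 region in orange and the others in grey; the line marks equal values. Most points lie along the line (median ratio 1.03), most of those far from it are grey, and the point at the top right is the domain with 227 and 255 tags per kb.

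Domains with H3K4me3 were also longer and had more H3K27me3 tags per kb. The 310 domains with a joint H3K4me3 region had a median length of 11847 bp and medians of 74.7 and 79.6 tags per kb in F1 and F2, and the 381 without one 9865 bp and 62.3 and 63.2 tags per kb. Their median highest fold was 15.8 and 15.9, against 12.3 and 12.1. These sets were not matched in length, and tags per kb were also higher in the longer classes of H3K27me3 region. The part of length in these values was not tested. The 34 domains with H3K27ac lay lower, at 57.1 and 61.0 tags per kb and a fold of 11.6 and 13.1, with a median length of 9990 bp. The highest density was in a domain on chromosome 2 from 89137738 to 89147243, singled out after its values were seen, with 227 tags per kb in F1 and 255 in F2. Its highest fold was only 5.40 and 5.37, and it held neither other mark.

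The long domains were gathered in parts of the chromosomes. Domains at most 100 kb apart were linked into groups, and 390 of the 691 (56.4%, 52.7 to 60.1%) lay in 148 groups of 2 or more. 99 groups held 2 domains, 26 held 3, 9 held 4, 8 held 5, 5 held 6 and 1 held 8. The median gap between neighbours on a chromosome was 634 kb, with quartiles of 15.0 and 3912 kb, and the largest was 64.1 Mb. Of 665 gaps, 75 were at most 1 kb, where a short break in the peak calls separates 2 domains, and 297 were over 1 Mb.

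Most of the autosomes held none. Of 2465 windows of 1 Mb, 394 (16.0%) held the midpoint of a long domain and 23 held 5 or more, and the window from 11 to 12 Mb of chromosome 14 held most, 9. Other H3K27me3 regions lay around the domains, with a median of 5 within 50 kb, against 4 for the regions of 4 to 8 kb and 3 for the shorter ones. Only 37 domains (5.35%) had none, against 10.4% and 14.5% of the other classes. Grouped domains were somewhat longer than single ones, 11144 against 9883 bp at the median, and held H3K4me3 in 46.4% against 42.9% of cases.

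Chromosomes differed in number and in H3K4me3. Chromosome 20 had 7.04 domains per 10 Mb (36 in all), followed by chromosome 11 with 6.27 and chromosome 14 with 6.22, and chromosome 23 had the fewest, 0.804 (5 in all). The share with H3K4me3 was 66.7% on chromosome 20 (24 of 36) but 20.5% on each of chromosomes 11 and 14 (8 of 39 each). Among chromosomes with at least 20 domains it ran from 15.0% (chromosomes 15 and 17, 3 of 20 each) to 81.8% (chromosome 8, 18 of 22).

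The 5 groups with most covered bases show how the marks combine over long stretches. The group on chromosome 20 from 30050051 to 30381880 held 8 domains that covered 141 kb of its 332 kb, and each of the 8 held H3K4me3. Within its span lay 28 H3K4me3 and 8 H3K27ac regions, but none of the H3K27ac regions overlapped a long domain. The group on chromosome 10 from 75993797 to 76110494 held 6 domains over 95.1 kb, 5 of them with H3K4me3, and no H3K27ac.

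The other 3 groups were more compact, with H3K27me3 over at least 90.0% of the span. On chromosome 11, from 37305421 to 37404906, 4 domains covered 89.6 kb and held a single H3K4me3 region. On chromosome 3, from 132374195 to 132460234, 5 domains covered 82.9 kb, and 1 H3K27ac region overlapped 2 of them at the left end of the group. On chromosome 1, from 238995236 to 239075626, 4 domains covered 79.3 kb, and 3 of them held 7 H3K4me3 regions without any H3K27ac. The groups on chromosomes 11 and 1 thus had similar H3K27me3 tags (7826 and 8140 against 8080 and 8000 in F1 and F2) and held 1 and 7 joint H3K4me3 regions. With H3K4me3 peaks at every FDR the numbers lay closer, at 14 and 10 peaks in the domains of the group on chromosome 11 and 19 and 14 in those on chromosome 1, in replicates 1 and 2.

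**Figure D5:**
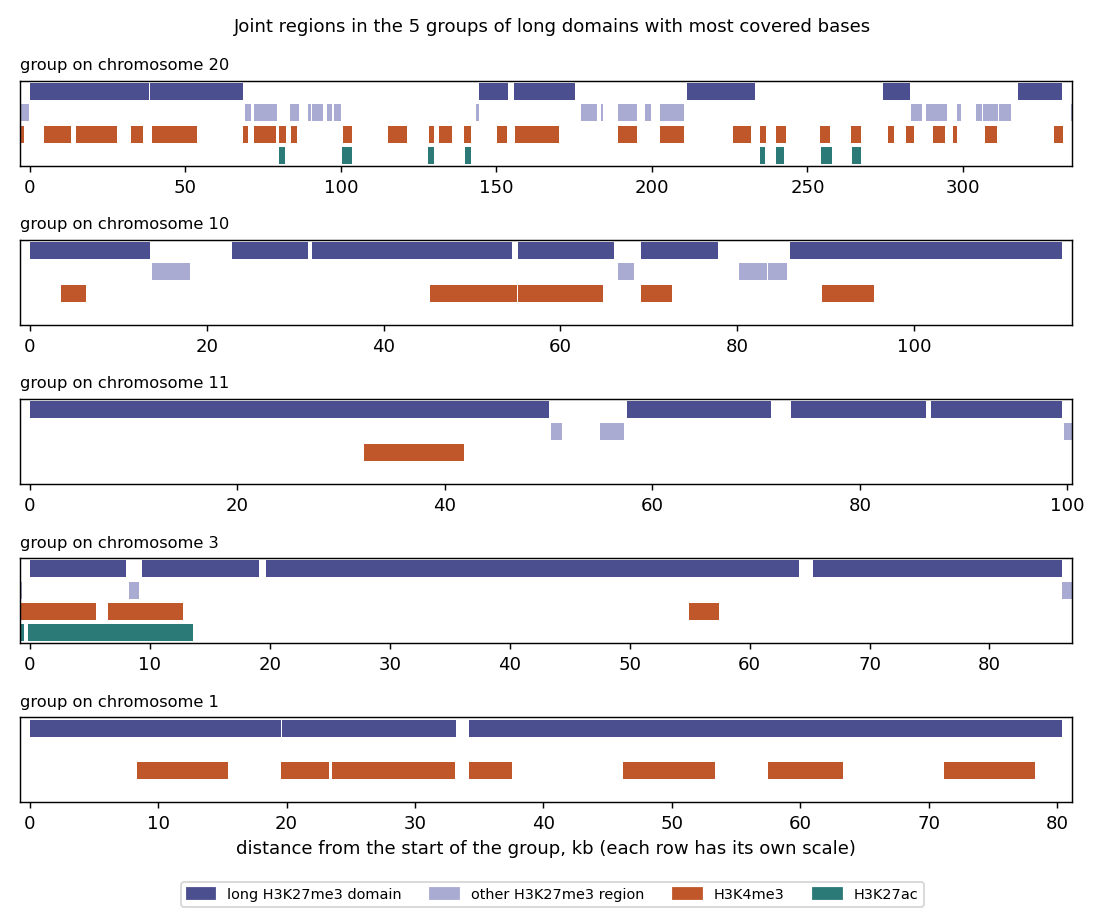
Joint regions in the 5 groups of long domains with most covered bases, 1 panel for each group, by the distance in kb from the start of the group; dark blue bars are long H3K27me3 domains, light blue bars other H3K27me3 regions, orange bars H3K4me3 and green bars H3K27ac. H3K27ac on chromosome 20 lies between the long domains, on chromosome 3 at the left end only, and on the other 3 chromosomes is absent.

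The 10 longest domains measured 30.0 to 50.1 kb. None of them held H3K27ac, and 8 held 1 to 4 joint H3K4me3 regions. The longest, on chromosome 11 from 37305421 to 37355492, was a single peak in each list with 5315 and 5523 tags in F1 and F2. It held 1 H3K4me3 region of 9.64 kb, whose strongest peaks had a fold of 45.4 in replicate 1 and 48.1 in replicate 2. The nearest H3K27ac region lay 21.5 kb away.

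The second longest, on chromosome 1 from 239029412 to 239075626, measured 46.2 kb and held 4717 and 4688 tags. Its 4 H3K4me3 regions covered 51.0% of its bases, with strongest peaks of 32.5 to 54.8-fold in replicate 1 and 24.6 to 63.1-fold in replicate 2, and the nearest H3K27ac lay 372 kb away. No other long domain held as many H3K4me3 regions. A domain of 36.6 kb on chromosome 15 from 60771555 to 60808166 had the highest cover of the 10, with 79.6% of its bases under 2 H3K4me3 regions, the longer of which measured 23412 bp and had strongest peaks of 67.3-fold and 65.5-fold. In contrast, H3K4me3 covered 9.39% of a domain of 34.0 kb on chromosome 16 from 4939673 to 4973636.

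5 domains held 3 H3K4me3 regions each, and the 4 longest of them are given here. The longest, on chromosome 20 (23150894 to 23186841, 35.9 kb), had 56.7% of its bases under H3K4me3. 1 on chromosome 8 (37297311 to 37323630) had 66.0%, another on the same chromosome (29045047 to 29070821) 59.3%, and 1 on chromosome 6 (60707201 to 60731562) 51.3%. Their tags in F1 and F2 were 3590 and 3704, 2605 and 2717, 2621 and 2609, and 1975 and 2181. None of them held H3K27ac, and the nearest lay 16.1 to 72.4 kb away. The other one, a domain of 12.1 kb at the interval of LBX1, is described with the named genes.

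The 3 longest domains with neither joint mark lay on chromosomes 6, 14 and 26. The domain on chromosome 6 from 108279247 to 108312015 measured 32.8 kb, with 2695 and 2697 tags. The one on chromosome 14 from 11591262 to 11622394 measured 31.1 kb, with 2258 and 2398 tags, and lies in the window that held most domains. The one on chromosome 26 from 23418113 to 23447590 measured 29.5 kb, with 1982 and 1908 tags. H3K4me3 peaks at every FDR did lie in them, 5 and 3 on chromosome 6, 1 and 1 on chromosome 14 and 4 and 1 on chromosome 26 in replicates 1 and 2, so these domains lacked a joint region and not every peak.

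The 3 domains with most H3K27ac bases also held H3K4me3, and they were less dense in H3K27me3 than the median domain. On chromosome 8 from 59076862 to 59092186, H3K27ac covered 75.9% and H3K4me3 64.2% of a domain with 44.0 and 45.2 tags per kb in F1 and F2. On chromosome 1 from 216289836 to 216305949 the marks covered 68.4% and 80.8%, at 45.4 and 64.5 tags per kb. On chromosome 8 from 51773931 to 51783426 both covered the whole domain of 9.49 kb, at 52.6 and 47.2 tags per kb. The strongest peaks of their H3K27ac regions had folds of 26.2 to 42.2 over both replicates, and those of their H3K4me3 regions 41.1 to 101.

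Genes could be named only at a small set of domains, through the nearest genes that the study lists for intervals under selection, so a name stands for the interval and not for the domain. 29 long domains overlapped such an interval (9) or lay within 50 kb of one (20), at 23 intervals. 19 of the 29 (65.5%) held H3K4me3, against 44.9% of all long domains. H3K27ac lay in 0 of the 29, which allows a share of up to 10.3% (3 counts of 29) or 11.7% as the upper Wilson limit, so the 4.92% of all long domains lies within it. All 10 domains without a joint H3K4me3 region held H3K4me3 peaks at some FDR, 9 of them in both replicates and 1 in replicate 1 alone. Named transcription factors were among the nearest genes of 11 intervals, a grouping made after the names were seen. There 13 of the 15 domains held H3K4me3, and at the other 12 intervals 6 of 14 did. Some of those 12 were listed only by an Ensembl ID, so whether a transcription factor is among them was not known. Several domains share 1 interval, and the lengths of the domains were not matched, so these counts are a description.

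The transcription factors of development included homeobox and paired box genes. At the interval of PAX6, the regulator of eye and forebrain formation, lay the domain of 36.6 kb on chromosome 15. OTX1, a homeobox gene of the forebrain, was listed at a domain of 24.2 kb on chromosome 3 (45040241 to 45064394) with 1809 and 2062 tags and 2 H3K4me3 regions. LBX1, a homeobox gene of migrating muscle precursors, was listed at 2 adjoining domains on chromosome 22 (21166641 to 21192170 in all) with 3 and 1 H3K4me3 regions. BARHL2, a homeobox gene of the nervous system, was listed at 2 domains on chromosome 1 of 12.8 and 20.2 kb, each with H3K4me3. NKX2-4, also a homeobox gene, was listed at a domain of 25.9 kb on chromosome 18 (45559429 to 45585369) with 2293 and 2437 tags and no joint H3K4me3 region.

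Other transcription factors gave a like picture. SOX2, a factor of pluripotent and neural stem cells, was listed at 2 domains of 13.4 and 13.5 kb on chromosome 1 (203505806 to 203533171 in all), each with 1 H3K4me3 region, and the nearest H3K27ac lay 370 kb and 384 kb away. Of the 2 domains at SIM2, a bHLH-PAS factor, the longer (16.7 kb) held a joint H3K4me3 region and the shorter (8.27 kb) held none, but 1 and 3 peaks at every FDR in replicates 1 and 2. LEF1, a transcription factor of the Wnt pathway, and HEY2, a repressor downstream of Notch, were each listed at a domain with 1 H3K4me3 region (10.6 and 11.6 kb). The H3K4me3 region at LEF1 had strongest peaks of 70.8-fold in replicate 1 and 99.5-fold in replicate 2.

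GLI2 and PLAG1 were listed at shorter domains. GLI2, which carries Hedgehog signals to the genome, was listed at a domain of 8.43 kb on chromosome 2 (184982527 to 184990952) with 408 and 439 tags and 1 H3K4me3 region of 43.1-fold and 43.7-fold. PLAG1, a zinc finger factor of growth, was listed with CHCHD7 at a domain of 9.07 kb on chromosome 9 (36199819 to 36208885) with 723 and 757 tags and 1 H3K4me3 region of 52.5-fold and 71.2-fold. H3K27ac lay 1.56 kb from that domain, the shortest distance of the 29.

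The remaining intervals had no named transcription factor. DUOX2, DUOXA1 and DUOXA2 are the dual oxidase that makes hydrogen peroxide for thyroid hormone synthesis and its maturation factors. The domain of 17.5 kb listed with them held no joint H3K4me3 region (1223 and 1218 tags), and 1 and 3 peaks at every FDR. The domain at CCKBR, the receptor of gastrin and cholecystokinin, held no joint region either (971 and 975 tags), and 1 and 2 peaks at every FDR. The domain at COPS5, a subunit of the COP9 signalosome, held 2 H3K4me3 regions with strongest peaks of 31.6-fold and 65.0-fold in replicate 1 and 43.1-fold and 51.0-fold in replicate 2. Both domains at SHQ1, an assembly factor of small nucleolar ribonucleoproteins, held no joint region, with 2 and 0 peaks at every FDR in one and 3 and 1 in the other. Of the 2 domains at KIZ, a protein of the centrosome, 1 held a joint H3K4me3 region (63.4-fold and 64.7-fold) and the other held 1 peak at every FDR in each replicate. The domains at OLFML2A, DPY19L2, DPCR1 and an interval listed only by an Ensembl ID on chromosome 2 each held 1 joint H3K4me3 region, with strongest peaks of 27.1 to 50.3-fold in replicate 1 and 36.0 to 56.5-fold in replicate 2. The domains at XAF1 and FBXO39 and at 2 other intervals with Ensembl IDs held no joint region.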

How the data were processed

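The labels gave the mark and the animal of each H3K4me3 and H3K27ac ChIP-Seq library of fetal perirenal adipose tissue, and 16 columns of the H3K27me3 lists F1 and F2, which no sample in the labels stands for, were used as the authors' own values. Reads were mapped by the authors to Oar_v3.1 in CLC Genomics Workbench 7.0 and called peaks in each library against 1 input with MACS 1.4.2. The lists the authors deposited give for each peak its position, the count of tags (not normalized), the FDR in percent and, as a ratio, its fold over the input. The joint lists the authors deposited hold positions only. Merging the peaks of both lists that overlap each other, at an FDR of at most 5% (H3K27me3), 1% (H3K4me3) and 10% (H3K27ac), gave 15425 of 15430, 15350 of 15350 and 34898 of 34899 autosomal joint regions with the same start and end. These limits were used because they remade the lists, and those for H3K4me3 and H3K27ac are higher than the limits given in the study's methods.

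Domains and lists were chosen with earlier results of these data known, and no test was made. Length is end minus start, overlap at least 1 bp, an edge 2 kb and a link 100 kb, and tags per kb are the summed tags of all peaks in a region divided by its length. The regions named are the 10 longest domains, the 5 with most H3K4me3 regions, the 5 groups with most covered bases, the 3 longest with neither mark, the 3 with most H3K27ac bases and the 5 on each side of the length minimum. Gene names come only from the study's list of intervals; of 28 names 23 were found as symbols in the gene table of ARS-UI_Ramb_v3.0 and 4 are Ensembl IDs. No sequence is shown, since no genome of the build was used here. The alternatives covered the length minimum, gaps, overlap rule, FDR and each library alone. The overlap code was tested on simulated data. Scripts ran in Python 3.11.15 with scipy 1.17.1, pandas 2.3.3, numpy 2.4.6 and matplotlib 3.10.9.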

Additional observations from a re-analysis of the deposited data

Results flagged for a closer look

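The joint H3K4me3 list leaves out shared peaks that are above the FDR limit in at least 1 animal, and these lie in many of the long domains. When the peaks of both replicates were merged at every FDR, 517 of 691 long domains (74.8%) held a shared H3K4me3 region. In 207 of them (30.0%, 26.7 to 33.5%) no region of the joint list was present, so the counts from the joint list leave them out. This does not mean that both animals were above the limit there. Within the limit, 498 long domains held a peak of replicate 1 and 312 a peak of replicate 2, against 310 with a joint region. The same share was 24.7% (23.0 to 26.4%) in the H3K27me3 regions of 4 to 8 kb and 14.9% (14.2 to 15.5%) in the shorter ones. There is no control group to set it against. For H3K27ac no long domain was added in this way, and few regions of the other classes were. These were 6 of 2587 regions of 4 to 8 kb (0.232%) and 28 of 12152 shorter ones (0.23%). In the long domains, 467 of 1253 H3K4me3 peaks of replicate 1 and 707 of 1109 of replicate 2 were above the limit of 1%. Outside H3K27me3 this held for 20159 of 38007 and 29986 of 45582 peaks. The share within the limit was 62.7% and 36.2% in the long domains, against 47.0% and 34.2% outside. Peaks above the limit were thus not particular to the long domains.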

How the results depend on the processing

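Of 44 alternatives over 9 results, 21 moved the value and 23 did not. A count was taken as unmoved within 1.5 times, a share within its interval and tags per kb only if equal. The number of long domains was 2046 with a minimum of 5 kb, 247 with 12 kb and 1279 when H3K27me3 regions up to 1 kb apart were joined, against 691, and 472 or 502 when list F1 or F2 was used alone. The share with H3K4me3 (44.9%) was 74.8% with the peaks of both libraries at every FDR, 31.8% and 60.7% with minimums of 5 and 12 kb, and 57.0% over the 365 domains with a peak of 8 kb or more in each list, an alternative chosen after seeing the data. Leaving out replicate 1 or 2 of H3K4me3 gave 45.2 to 72.1%, the higher value without replicate 2. H3K4me3 at an edge (5.35%) was 9.55% within 5 kb, and 4.78 to 5.21% with 1 replicate left out. The share with H3K27ac (4.92%) was 2.89% by midpoint and 2.75% with 50% of the region inside, and 5.21 to 8.39% with 1 replicate left out, the higher value without replicate 2. H3K27ac at an edge (1.74%) was 0.868% within 1 kb and 3.47% within 5 kb, and 2.46 to 2.60% with 1 replicate left out. The share of domains in groups (56.4%) was 50.8% and 62.4% with links of 50 and 250 kb, 65.1% and 40.1% with minimums of 5 and 12 kb, and 48.5% after regions up to 1 kb apart were joined, an alternative also chosen after seeing the data. H3K4me3 regions without H3K27ac (91.8%) were 87.3% against H3K27ac peaks of either library at every FDR, and 92 to 96.2% with 1 H3K4me3 replicate left out. With the H3K4me3 and H3K27ac peaks of the same animal, also chosen after seeing the data, they were 93.6% in replicate 1 and 91.5% in replicate 2. The FDR limit of 5% left the tags per kb at 67.5 and 69.6. No H3K27me3 peak was above it, so this alternative could not move them. Why these values moved was not tested.

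The H3K4me3 and H3K27ac libraries come from the same 2 fetuses, and the values within each animal are those given above. No test was made, so the pairing by animal was used only in those values. With 2 animals, variation between fetuses shows only as a difference of 1 pair of replicates. The input held fewer tags than any other library, and its part in the fold and FDR was not tested.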
